A study of Mus musculus with 14 samples.

Results

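The interleukin-6 (IL-6) family genes considered here are 10 genes of the cytokines and receptor chains that use gp130, namely the cytokines Il6, Il11, Lif, Osm and Clcf1, the shared chain Il6st, which encodes gp130 itself, the further signalling chains Osmr and Lifr, and the ligand-binding chains Il6ra and Il11ra1. Their probes were found by matching the RefSeq accession printed with each array probe to these gene symbols. A probe was matched for 9 of the 10 genes, out of 19096 genes with a matched probe on the array, and all 9 passed the filter on dim signals, which 15540 genes passed in all. The 9 genes had 17 probes, of which 16 were tested. Lif had no matched probe and no value is given for it. The family was selected on earlier results of these data in which Il6 and Il11 differed between groups, so the levels of these 2 genes are given as a description with no test, whereas the other members carry the adjusted p of the fit over all probes. Il6 passed the filter through its DSS arrays alone.

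The question was how the family responds to experimental colitis and whether it responds differently when the glucocorticoid receptor (GR) is missing from the intestinal epithelium. All 14 mice were female C57BL/6 mice aged 4 to 6 months that carried loxP-flanked alleles of Nr3c1, the GR gene. Mice with these alleles alone (Flox) served as controls, and GR iKO mice carried Villin-cre in addition, which removes the gene in the intestinal epithelium and leaves it in immune, stromal and muscle cells. Mice of both genotypes drank regular water (n = 4 Flox, n = 4 GR iKO) or, to injure the colonic epithelium and provoke colitis, water with 2.5% dextran sulfate sodium (DSS) for 7 days (n = 3 Flox, n = 3 GR iKO). Total RNA of whole colon was hybridised to 1-colour microarrays, 1 mouse per array. Whole tissue was measured, so more cells of a type and more RNA per cell cannot be told apart for any gene below.

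Levels are log2 signals with the 75th percentile of the same array subtracted, so a level of 0 equals that percentile, and a gene is represented by its probe with the highest mean signal. Differences are differences of group means on this log2 scale, with the standard error (SE) from limma, and a probe was called when its adjusted p was under 0.05. Whether groups overlap is given as a description, because the share of all probes without overlap was not computed. The 75th percentile was lower in most DSS mice than on water, but GR iKO DSS replicate 1 (713) lay within the water range. It was 707 to 1003 intensity units on water, 430, 675 and 262 in Flox on DSS, and 713, 559 and 493 in GR iKO on DSS. Mean log2 spike-in signal was 11.2 to 11.9 on water, 12.8 to 13.1 in Flox on DSS and 11.8 to 12.4 in GR iKO on DSS. Each array detected 62.6% to 71.3% of its probes well above background, and Flox DSS replicate 4 was lowest in both percentile and detection. Arrays of a group correlated at 0.983 to 0.989 on water and at 0.958 to 0.986 on DSS, and 82.9% of probes varied more on DSS than on water. Nr3c1 signal in GR iKO colon was 57.3% of that in Flox colon on water (exact two-sided permutation p = 0.0286) and 56.1% on DSS (exact p = 0.1, the smallest that 3 against 3 arrays allow), without overlap in either case. Whether the probe lies in the deleted part was not determined. Scaling each array on its 8 spike-in control transcripts in place of the percentile added −2.36 to every difference with DSS in Flox, −0.96 with DSS in GR iKO and 1.23 between the genotypes on DSS, and the medians of all probes became −2.45, −0.98 and 1.26. Every direction below is relative to the bulk of the transcripts on the same array, and where the value given for a member's brightest probe turned under spike-in scaling, the turned value stands beside it.

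Each cytokine of the family binds its receptor on the target cell and brings gp130 chains together, either as a pair of gp130 molecules (IL-6, IL-11) or as gp130 with a second signalling chain such as LIFR or OSMR (LIF, oncostatin M). The associated JAK kinases then phosphorylate the receptor and STAT3, which enters the nucleus and turns on acute-phase, antimicrobial and survival genes together with its own inhibitor, SOCS3. IL-6R and IL-11R only bind ligand and do not signal themselves, and IL-6R can be shed from the cell surface and act in soluble form. In the gut the pathway is known for its part in epithelial repair, and IL-6, IL-11 and oncostatin M are known to be raised in inflamed colon.

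The DNA upstream of the 2 genes with the widest differences between groups, Il6 and Il11, is shown as the 250 bases before the annotated transcription start from RefSeq (assembly GRCm38.p6). Matches to motifs of factors active in inflammation are in capitals.
Il6 (chr5:30012864-30013113, plus strand): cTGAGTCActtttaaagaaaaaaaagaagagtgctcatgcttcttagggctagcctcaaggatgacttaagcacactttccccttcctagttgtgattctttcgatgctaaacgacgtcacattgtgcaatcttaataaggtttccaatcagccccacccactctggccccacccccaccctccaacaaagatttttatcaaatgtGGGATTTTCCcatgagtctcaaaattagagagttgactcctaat
Il11 (chr7:4778142-4778391, minus strand): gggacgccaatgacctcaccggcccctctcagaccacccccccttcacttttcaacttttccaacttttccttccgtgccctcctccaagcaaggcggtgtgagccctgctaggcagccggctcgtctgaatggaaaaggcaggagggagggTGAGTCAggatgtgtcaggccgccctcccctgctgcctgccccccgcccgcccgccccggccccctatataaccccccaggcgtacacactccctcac
Both strands were searched for the AP-1 motif TGANTCA, the STAT motif TTCNNNGAA, the NF-kB motif and the glucocorticoid receptor half-site AGAACA. The Il6 stretch held an AP-1 match from base −249 to −243 and an NF-kB match from base −44 to −35, counted back from the start. The Il11 stretch held an AP-1 match from base −98 to −92, and a second annotated Il11 start (chr7:4782858-4783107) had none of the 4 motifs. Of 32851 upstream stretches of the same length, 6.75% held the AP-1 motif, 7.02% the STAT motif, 3.9% the NF-kB motif and 16.1% the receptor half-site. Among the other members in the table (Lif, Il6st, Il6ra, Il11ra1, Osmr and Lifr), an AP-1 match in Lif was the only match of any of the 4 motifs. Motif matches are letters in a window and were not tested for binding.

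Of the cytokines, Il6 had the widest range. Il6 was not well above background in any of the 8 mice on water, where its measured levels were −8.23, −8.03, −7.62 and −7.60 in Flox and −7.89, −7.52, −8.10 and −8.00 in GR iKO. On DSS it was detected in every mouse, at −0.05, −0.44 and 0.02 in Flox and at 1.99, 0.62 and 1.04 in GR iKO. All 3 GR iKO mice on DSS lay above all 3 Flox mice on DSS. Set against the dimmest signal that counted as detected, Il6 was at least 57.8-fold higher with DSS in Flox (measured means −0.16 and −7.87) and at least 134-fold higher in GR iKO (means 1.22 and −7.88). Between genotypes on DSS the difference was 1.37 (SE 0.31), a 2.59-fold higher signal in GR iKO.

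Il11, which encodes a cytokine known for its actions on stromal cells and on platelet formation, was detected on all 14 arrays. Its levels on water were −3.81, −4.17, −3.71 and −3.57 in Flox and −3.78, −4.10, −3.91 and −3.81 in GR iKO. On DSS they were −0.85, −0.54 and −0.44 in Flox and 1.83, 2.14 and 1.24 in GR iKO. The genotypes overlapped fully on water and were separated on DSS. The difference with DSS was 3.20 (SE 0.21) in Flox, 9.22-fold, and 5.64 (SE 0.21) in GR iKO, 49.8-fold. On DSS, GR iKO exceeded Flox by 2.35 (SE 0.22), 5.09-fold.

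Osm encodes oncostatin M, made mainly by myeloid cells. Its levels on water were −5.43, −5.63, −5.06 and −4.75 in Flox, detected in 2 of 4 mice, and −5.29, −6.26, −5.41 and −5.16 in GR iKO, detected in 3 of 4. On DSS they were −3.02, −4.22 and −3.62 in Flox and −1.33, −2.40 and −1.25 in GR iKO. Osm rose with DSS by 1.60 (SE 0.37, limma adjusted p = 0.00319) in Flox, which turned to −0.76 under spike-in scaling, and by 3.87 (SE 0.37, adjusted p = 1.18e-05) in GR iKO. Its DSS groups did not overlap each other or the water groups. A dimmer second Osm probe was not well above background in any Flox mouse on DSS, and in GR iKO it gave a rise with DSS of at least 2.29-fold (limma adjusted p = 0.0138).

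Clcf1 (cardiotrophin-like cytokine factor 1) acts through the ciliary neurotrophic factor receptor. It was dim and had the smallest DSS differences of the measured cytokines. Levels on water were −4.77, −4.79, −4.59 and −4.06 in Flox and −4.47, −4.80, −5.20 and −4.31 in GR iKO, and on DSS −4.27, −3.98 and −3.58 in Flox and −3.65, −3.85 and −3.78 in GR iKO. The Flox groups overlapped, whereas the GR iKO groups did not. Clcf1 rose by 0.61 (SE 0.24, limma adjusted p = 0.0483) in Flox and by 0.94 (SE 0.24, adjusted p = 0.0072) in GR iKO. Under spike-in scaling it turned to −1.75 in Flox and to −0.02 in GR iKO. When single arrays were left out, the Flox call remained only without Flox control replicate 4 (adjusted p = 0.0162), Flox DSS replicate 1 (0.0332), GR iKO control replicate 3 (0.0327) or GR iKO control replicate 4 (0.0433), and was lost in the other 10 fits (up to 0.182, without Flox DSS replicate 4). Only 5 of 11 other settings called Clcf1 in Flox, spike-in scaling among them as a fall. The call was lost under quantile normalization (limma adjusted p = 0.101), with the deposited log2 values (0.102) and with water and DSS arrays weighted separately (0.134), among others.

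**Figure D1:**
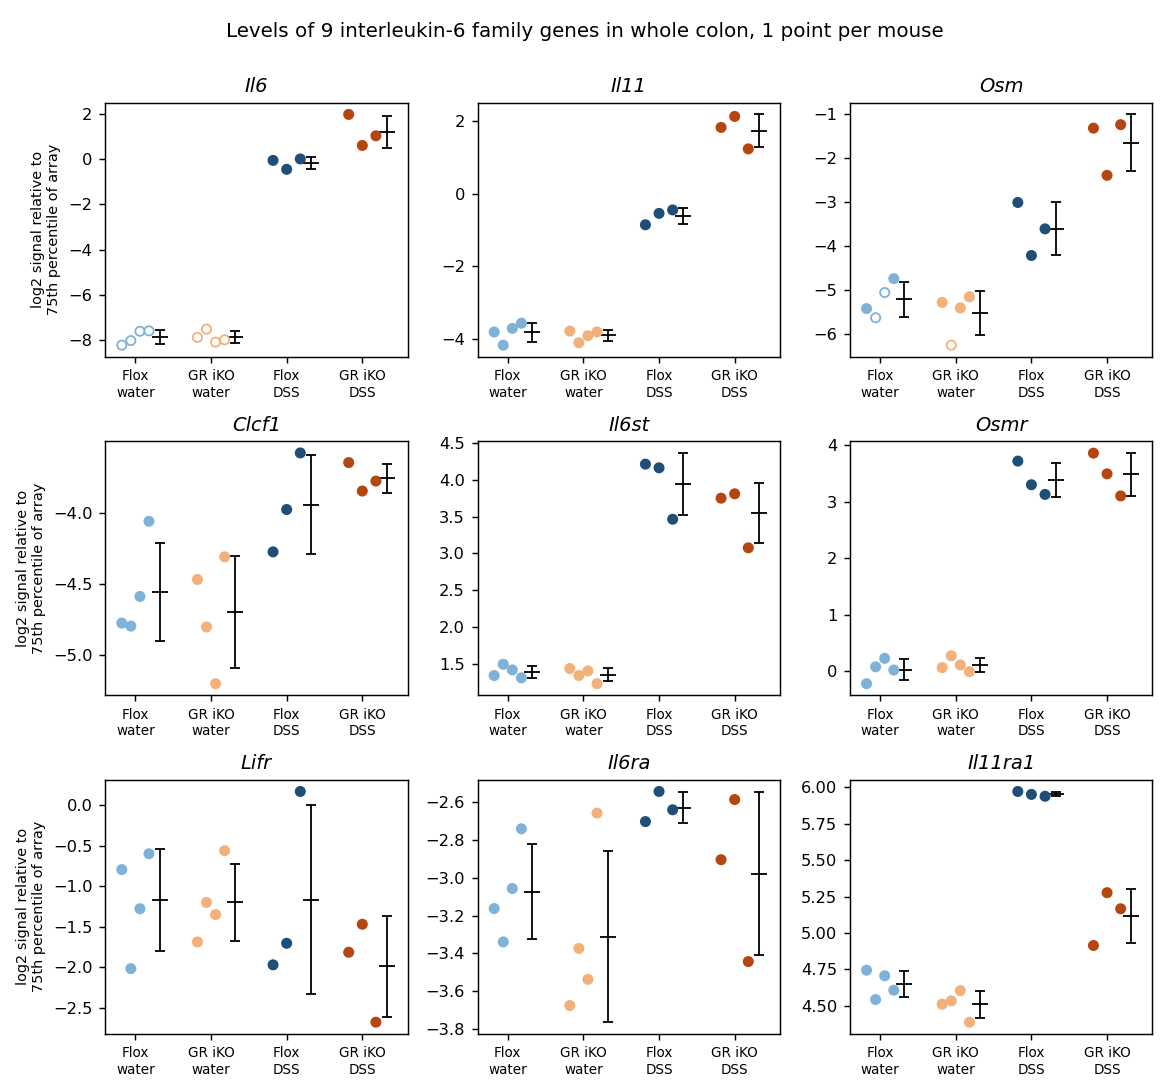
Level of each of the 9 measured genes (log2 signal minus that array's 75th percentile, y axis) in the 4 groups (x axis), with 1 point per mouse, open where the probe was not well above background, and the mean and SD beside them. Il6 is open in all 8 mice on water, Il11 and Osm on DSS lie higher in GR iKO than in Flox, and Il11ra1 on DSS lies lower.

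The signalling chains fell into genes with a strong DSS response and 1 gene whose probes disagreed. Il6st, which encodes gp130, stood at 1.34, 1.49, 1.42 and 1.31 in Flox and at 1.44, 1.34, 1.40 and 1.23 in GR iKO on water. On DSS it stood at 4.21, 4.16 and 3.47 in Flox and at 3.75, 3.81 and 3.08 in GR iKO. Every DSS mouse exceeded every water mouse. Il6st rose by 2.56 (SE 0.20, limma adjusted p = 1.98e-06), 5.89-fold, in Flox and by 2.19 (SE 0.20, adjusted p = 8.84e-06), 4.57-fold, in GR iKO. The Flox change was 0.20 (adjusted p = 0.672) under spike-in scaling.

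Osmr encodes the oncostatin M receptor chain that pairs with gp130. Its levels on water were −0.22, 0.07, 0.22 and 0.02 in Flox and 0.06, 0.27, 0.11 and −0.01 in GR iKO. On DSS they were 3.72, 3.30 and 3.13 in Flox and 3.86, 3.50 and 3.10 in GR iKO, with the genotypes intermixed. Osmr rose 10.3-fold (log2 3.36, SE 0.19, limma adjusted p = 4.53e-07) in Flox and 10.4-fold (log2 3.38, SE 0.19, adjusted p = 4.82e-07) in GR iKO. A second, dimmer probe gave 3.30 in Flox and, with no GR iKO water mouse well above background, at least 10.7-fold in GR iKO. By the brightest probe under spike-in scaling, the log2 rise was 1.00 in Flox and 2.42 in GR iKO.

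Lifr encodes the receptor chain for LIF, and its 5 probes, all assigned to the same transcript, did not move together. The brightest stood at −0.79, −2.02, −1.28 and −0.60 in Flox and −1.69, −1.20, −1.35 and −0.56 in GR iKO on water, and at −1.97, −1.70 and 0.17 in Flox and −1.81, −1.47 and −2.68 in GR iKO on DSS. All 4 groups overlapped, and its difference with DSS was 0.00 (SE 0.51, limma adjusted p = 0.996) in Flox and −0.79 (SE 0.51, adjusted p = 0.232) in GR iKO. Under spike-in scaling the values were −2.36 (adjusted p = 1.45e-04) in Flox and −1.75 (adjusted p = 0.00665) in GR iKO, both called falls. Probe A_52_P192699 instead rose with DSS by 5.21 (SE 0.92, adjusted p = 5.14e-04) in Flox and by 3.68 (SE 0.92, adjusted p = 0.00627) in GR iKO, where replicate 1 stayed at −4.72 and the other mice reached −0.71 and −0.89. Probes A_51_P113182 and A_52_P297113 were called higher in GR iKO, by 0.62 and 0.73, and not in Flox, and the fifth was too dim to be tested. No direction is therefore given for Lifr.

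The ligand-binding chains differed from each other. Il6ra stood at −3.16, −3.34, −3.06 and −2.74 in Flox and −3.68, −3.37, −3.54 and −2.66 in GR iKO on water, and at −2.70, −2.54 and −2.64 in Flox and −2.90, −2.58 and −3.44 in GR iKO on DSS. Its difference with DSS was 0.45 in Flox (95% interval −0.10 to 0.99, limma adjusted p = 0.153) and 0.33 in GR iKO (−0.21 to 0.88, adjusted p = 0.303), neither of which passed the threshold. Under spike-in scaling Il6ra turned to −1.91 in Flox, a called fall (limma adjusted p = 3.69e-04), and to −0.62 in GR iKO without a call.

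Il11ra1 encodes the IL-11 receptor alpha chain. Its levels were 4.74, 4.54, 4.71 and 4.61 in Flox and 4.51, 4.53, 4.60 and 4.39 in GR iKO on water. On DSS they were 5.97, 5.95 and 5.94 in Flox and 4.91, 5.28 and 5.17 in GR iKO. The GR iKO mice on DSS lay between the water mice and the Flox mice on DSS, without overlap. Il11ra1 rose with DSS by 1.30 (SE 0.11, limma adjusted p = 2.70e-06), 2.47-fold, in Flox and by 0.61 (SE 0.11, adjusted p = 7.57e-04), 1.53-fold, in GR iKO. Under spike-in scaling these turned to −1.06 and −0.35. A second probe gave 1.42 and 0.51 and was called in both genotypes.

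Of the 7 genes other than Il6 and Il11, 5 were called higher with DSS in Flox (Osm, Clcf1, Il6st, Osmr and Il11ra1) and none lower. Of all 29523 tested probes, 24.4% were called higher and 28.2% lower there. In GR iKO the same 5 genes were called higher and none lower, against 22.0% and 22.5% of all probes. The median difference over the 7 genes was 1.30 in Flox and 0.94 in GR iKO, beside −0.09 and −0.02 over all probes. Il6 and Il11 also passed the threshold in both genotypes, but the family was selected on their values, and their calls are no evidence of their own. Under spike-in scaling only 1 of the 7 (Osmr) was called higher in Flox and 4 (Clcf1, Il11ra1, Il6ra and Lifr) were called lower, against 1.06% and 88.5% of all probes. In GR iKO 3 (Osm, Il6st and Osmr) were called higher and Lifr lower under that scaling, against 3.78% and 53.7%. The Il11 difference under that scaling was 0.84 in Flox and 4.68 in GR iKO. Within the slides that held both arms, the Il6st difference was 2.16 to 2.87 over 3 slides in Flox and 1.85 to 2.41 over 3 slides in GR iKO, and the Osmr difference was 3.11 to 3.95 and 3.12 to 3.80.

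**Figure D2:**
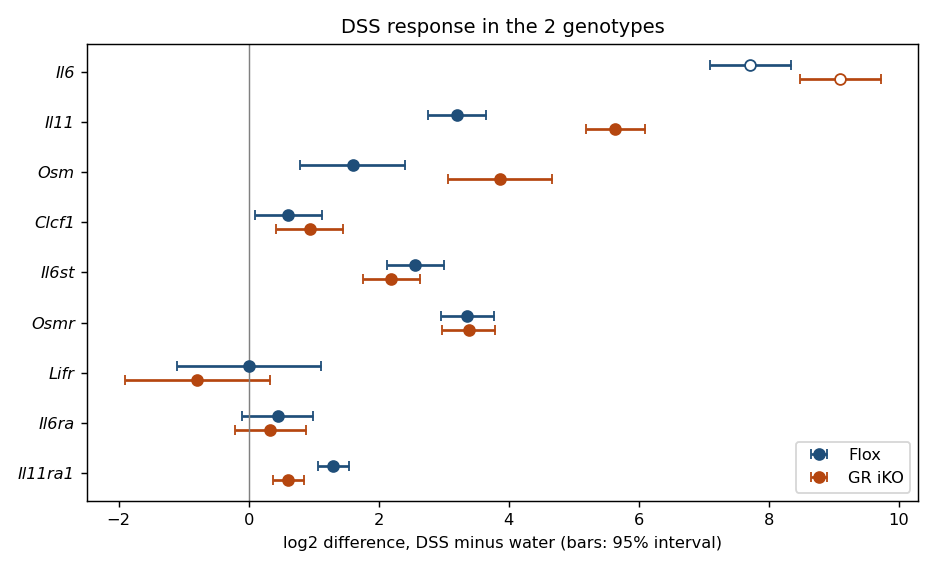
Log2 difference between DSS and water (x axis) for each gene in Flox and GR iKO, with 95% intervals from the limma fit and open points for Il6, whose water arrays were not above background so that its fitted value is no bound. Osmr lies at 3.36 and 3.38 in the 2 genotypes, Il11 at 3.20 and 5.64, and Il11ra1 at 1.30 and 0.61, and under spike-in scaling Osm, Clcf1 and Il11ra1 in Flox, and Clcf1 and Il11ra1 in GR iKO, turn below 0.

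On water, loss of epithelial GR was not accompanied by a detected change in any member. None of the 9 genes was called by limma, and none had an unadjusted p under 0.05, beside 0.00339% of all probes called. The narrowest 95% interval was that of Il11ra1, −0.36 to 0.08, and the widest that of Lifr, −1.06 to 1.00.

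On DSS, 1 of the 7 genes other than Il6 and Il11 was called higher in GR iKO than in Flox (Osm, against 6.44% of all probes) and 1 was called lower (Il11ra1, against 6.78%). Il6 and Il11 also passed the threshold, but the family was selected on their differences between groups, and their calls are no evidence of their own. Il6, Il11 and Osm were each higher in every GR iKO mouse than in every Flox mouse. This separation is a description, since the share of all probes that separate was not computed. An exact permutation test of 3 against 3 arrays cannot give a p under 0.1. Osm differed by 1.96 (SE 0.40, limma adjusted p = 0.0124), 3.88-fold, and by 1.66 (adjusted p = 0.0516) without Flox DSS replicate 2. By the second Osm probe the signal was at least 1.66-fold higher (adjusted p = 0.159). Without that array the Il6 difference was 1.23. Il11ra1 differed by −0.83 (SE 0.12, limma adjusted p = 0.00504), 0.561 of the Flox signal, and its second probe by −0.86 (adjusted p = 0.00722), but the sign turned to 0.40 (adjusted p = 0.323) under spike-in scaling.

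The remaining members were not called between genotypes on DSS. Osmr differed by 0.10 (95% interval −0.34 to 0.54, limma adjusted p = 0.78), Il6st by −0.40 (−0.87 to 0.07, adjusted p = 0.237), Clcf1 by 0.19 (−0.37 to 0.74, adjusted p = 0.672), Il6ra by −0.35 (−0.93 to 0.23, adjusted p = 0.417) and Lifr by −0.82 (−2.01 to 0.37, adjusted p = 0.346). Without Flox DSS replicate 4 the Il6st difference was −0.64 and passed the threshold (adjusted p = 0.0357). Under spike-in scaling Osmr (1.33, adjusted p = 0.0143) and Clcf1 (1.42, adjusted p = 0.00903) were called higher in GR iKO, and Il6st, Il6ra and Lifr turned to 0.83, 0.88 and 0.41 without a call. Slides 1 and 4 each held a DSS mouse of both genotypes, with Flox at array position 3 and GR iKO at position 4 on both slides. Within these slides GR iKO minus Flox was 0.66 and 1.02 for Il6, 2.99 and 1.68 for Il11, 0.62 and 2.36 for Osm, and −0.69 and −0.77 for Il11ra1. With slide as a block the differences were 1.24, 2.25, 1.65 (adjusted p = 0.0307) and −0.83 (adjusted p = 0.0282). The calls rest on a spread estimated from all 14 arrays. When only the 6 DSS arrays were fitted, none of the 9 genes and none of all probes passed by limma (4794 probes had an unadjusted p under 0.05), with adjusted p = 0.226 for Osm and Il11ra1. With water and DSS arrays weighted separately, Osm (limma adjusted p = 0.0988) and Il11ra1 (0.059) also missed the threshold. None of the 7 genes other than Il6 and Il11 was called then, beside 0.0305% of all probes.

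**Figure D3:**
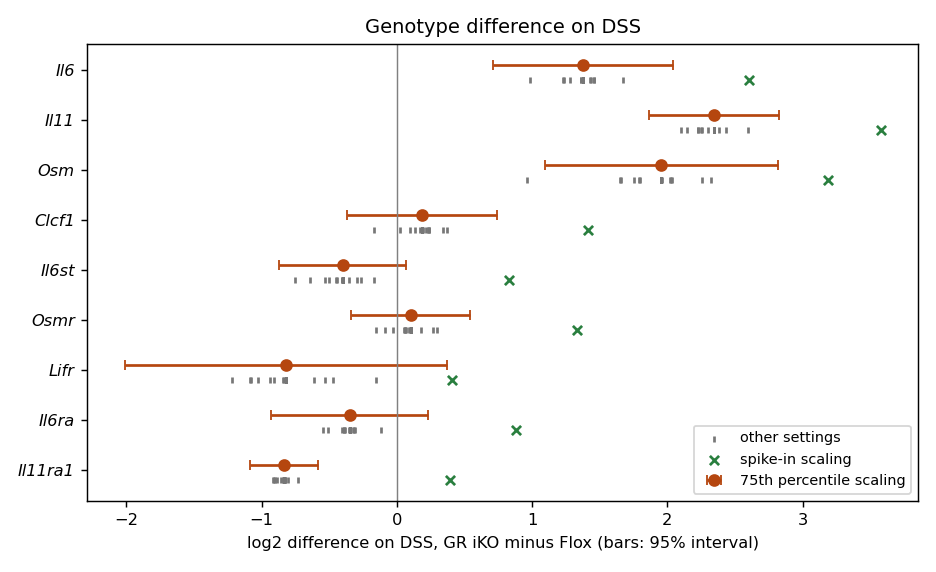
Log2 difference between GR iKO and Flox on DSS (x axis) for each gene, with the 95% interval under 75th percentile scaling (circles), the value under spike-in scaling (crosses) and the values under the other settings and with 1 array left out (grey marks). Il6, Il11 and Osm lie above 0 under every setting shown, whereas Il11ra1 lies at −0.83 and, like Il6st, Il6ra and Lifr, crosses to the other side of 0 under spike-in scaling (0.40).

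The genotype by DSS interaction, the difference between the DSS responses of GR iKO and Flox (positive where GR iKO responded more), was called by limma for none of the 7 genes other than Il6 and Il11 (2 of the 7, Osm and Il11ra1, had an unadjusted p under 0.05), beside 0.112% of all probes called. The interaction of Osm was 2.27 (SE 0.52, limma adjusted p = 0.0716) and that of Il11ra1 −0.69 (SE 0.15, adjusted p = 0.0684), which turned to 0.71 under spike-in scaling. That of Il6, whose water levels were not measured above background, was not called and is not given. Osmr had an interaction of 0.02 (95% interval −0.56 to 0.60, limma adjusted p = 0.98) and Il6st of −0.36 (−0.98 to 0.26, adjusted p = 0.528), which turned to 1.04 under spike-in scaling. With that scaling 3 of the 7 genes were called higher, beside 63.5% of all probes called. These were Osm (3.67, limma adjusted p = 0.00428), Clcf1 (1.73, 0.0206) and Osmr (1.42, 0.0439). Il11, whose levels were used to select the family, had an interaction of 2.43 (SE 0.29), given as a description. It was 2.33 with slide as a block and 2.31 with a replicate block, and ranged from 2.23 to 2.68 over the 14 fits that left out an array.

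Markers of other cells moved with these groups. Of all probes, 24.4% were called higher and 28.2% lower with DSS in Flox, and 22.0% and 22.5% in GR iKO. Between the genotypes on DSS 6.44% were called higher in GR iKO, 6.78% lower and 13.2% in either direction. The marker counts below stand beside these shares. The summed signal of 6 neutrophil markers, of which Cxcr2 and Mmp8 were not above background in any mouse on water, as log2 relative to the water mean, ranged from −1.02 to 1.24 on water, and was 8.21, 7.40 and 6.72 in Flox and 10.3, 8.44 and 9.97 in GR iKO on DSS. All 6 were called higher with DSS in GR iKO and 5 in Flox, and 4 were called higher in GR iKO than in Flox on DSS, among them the granule gene Ngp, not above background in any Flox mouse, and Mmp8 (3.07, limma adjusted p = 0.0116). Cxcr2 and Mmp8 passed the filter on dim signals through DSS arrays alone, and Ngp through GR iKO arrays alone. The calls of Cxcr2, Mmp8 and Ngp in these counts are therefore a description and no evidence of their own. The GR iKO mouse with the lowest neutrophil signal on DSS, replicate 3, also had the lowest Osm and Il6 and the highest Il11. The 8 macrophage markers summed to 0.49 to 1.30 in Flox and 1.08 to 2.11 in GR iKO on DSS, and 1 of 8, Cd14 (2.63 in Flox and 4.58 in GR iKO), was called between the genotypes. The median difference of the 8 was −0.06, and 5 of them lay lower in GR iKO. The part of these cells in the levels of Osm, Il6 and Il11 was not tested.

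Markers of several cell types differed between the same groups as Il11ra1, and the shares of all probes given with the neutrophil markers stand beside these counts too. The 5 smooth muscle genes (Myh11, Acta2, Tagln, Des and Cnn1), each detected in every group, summed to 1.32, 0.95 and 1.80 in Flox and −0.60, 0.63 and 0.23 in GR iKO on DSS, and to −0.38 to 0.36 on water. All 5 were called higher with DSS in Flox, none in GR iKO, and all 5 were called lower in GR iKO than in Flox on DSS, with a median of −1.32. Under spike-in scaling all 5 fell below 0 with DSS in Flox, and 4 of the 5 stayed below 0 between the genotypes on DSS. Of 3 skeletal muscle markers, 2 were tested and both did the same, with a median of −1.52 on DSS. The 6 fibroblast markers were called higher with DSS in both genotypes (1 of 6 in Flox and 4 of 6 in GR iKO stayed above 0 under spike-in scaling) and none between the genotypes on DSS (median −0.29). Of 7 epithelial markers, Epcam (0.71) and Cldn7 (0.69) were called higher in GR iKO on DSS. Between the genotypes on DSS 6 of the 7 had an unadjusted limma p under 0.05, and the median was 0.57. With DSS, 1 of the 7 was called higher and 2 lower in Flox, and 1 higher and 0 lower in GR iKO. Of 3 adipocyte markers, 2 were tested, and on DSS they differed by a median of −3.08 between the genotypes, with Adipoq (−3.09, limma adjusted p = 0.0382) called lower in GR iKO. Their sum ranged from −0.18 to 1.86 in Flox and from −3.60 to 0.31 in GR iKO on DSS, and Lep was not above background in any GR iKO mouse on DSS. Of 5 B and plasma cell markers, 4 were called lower with DSS in Flox and 2 in GR iKO. Between the genotypes on DSS limma called none of the 5 (3 at an unadjusted p under 0.05), none of 4 endothelial markers (0) and none of 5 T cell markers (2). The part of muscle, fat or epithelial content in the Il11ra1 difference was not tested.

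**Figure D4:**
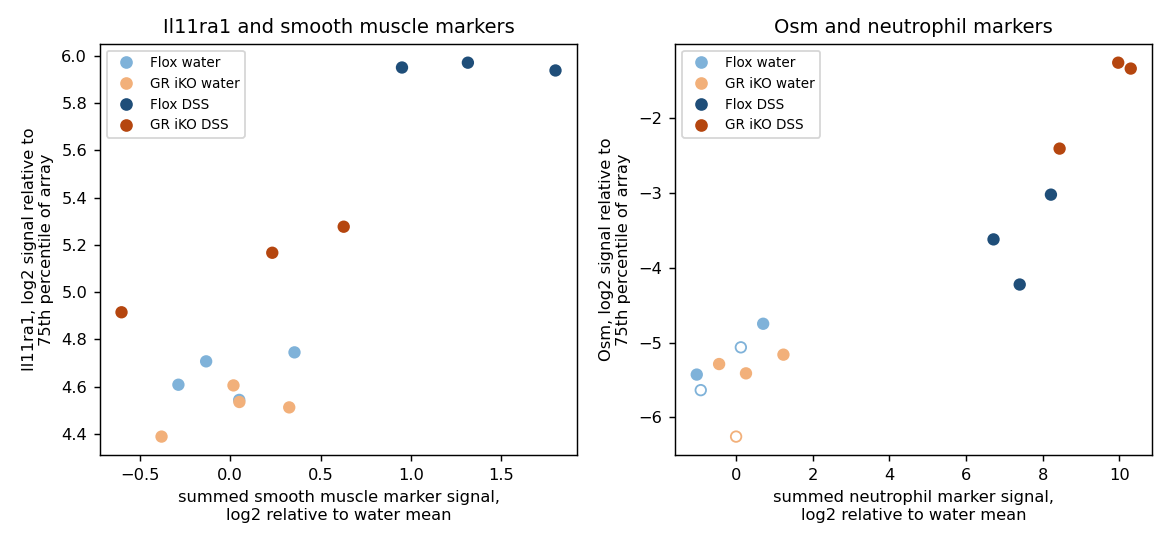
Level of Il11ra1 against the summed signal of 5 smooth muscle markers (left) and of Osm against that of 6 neutrophil markers (right), as log2 values, 1 point per mouse, open where the gene was not well above background. The 3 Flox DSS mice lie highest on both axes on the left, and the 3 GR iKO DSS mice lie highest on both axes on the right.

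Several genes downstream of gp130 rose with DSS. Of 8 signalling and feedback genes, 4 were called higher and 1 lower in Flox, and 5 higher and 2 lower in GR iKO, with a median of 0.41 and 0.54. Of all probes, 24.4% were called higher and 28.2% lower in Flox, and 22.0% and 22.5% in GR iKO. Under spike-in scaling, 2 of the 4 (Socs3 and Socs1) and 3 of the 5 stayed above 0. Socs3, the feedback inhibitor induced by STAT3, rose by 4.53 (SE 0.19) in Flox and 5.22 (SE 0.19) in GR iKO, and Socs1 by 2.91 and 3.76. Stat3 rose by 2.27 and 1.97 and the phosphatase gene Ptpn11 by 0.66 and 0.49, whereas the kinase gene Tyk2 fell by 0.91 and 0.68 on the log2 scale. Jak2 rose in GR iKO (0.60) and was at −0.13 in Flox, Pias3, which encodes an inhibitor of STAT3, fell by 0.54 in GR iKO and was at −0.16 in Flox, and Jak1 was not called in either (0.17 and 0.14). Between the genotypes on DSS, Socs3 (0.71, limma adjusted p = 0.0405) and Jak2 (0.78, adjusted p = 0.00916) were called higher in GR iKO, beside 6.44% of all probes.

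Of 14 genes listed as STAT3 targets, 12 were called higher with DSS in Flox and 13 in GR iKO, against 24.4% and 22.0% of all probes. The median was 2.96 in both, and 8 of the 12 and 13 of the 13 stayed above 0 under spike-in scaling. The antimicrobial lectin genes Reg3b (11.76 and 10.42) and Reg3g (10.01 and 9.07) rose most, followed by haptoglobin, Hp (8.18 and 7.02). Saa1 was not called in either genotype (−0.07 and 0.08), and Saa3, an acute-phase gene, rose in GR iKO (1.23) and stood at −0.18 in Flox. On DSS, 2 of 14 were called between the genotypes, Saa3 (1.43, limma adjusted p = 0.0154) and the kinase gene Pim1 (0.83, adjusted p = 0.042), both higher in GR iKO. Of all probes, 6.44% were called higher there and 13.2% in either direction, so 2 of 14 lies near that share. Many of these genes also respond to other signals.

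Among genes of receptor shedding, 3 of 4 had a probe. Adam17, the protease that cleaves IL-6R, was at −0.27 (adjusted p = 0.034) in Flox and at 0.27 (adjusted p = 0.0435) in GR iKO by limma, and on DSS it was higher in GR iKO by 0.46 (adjusted p = 0.018). Under spike-in scaling the GR iKO value of Adam17 also lies below 0. Rhbdf2, which encodes a partner required for Adam17 maturation, rose by 0.44 in Flox, which falls below 0 under spike-in scaling, and by 1.41 in GR iKO, and was higher in GR iKO on DSS by 0.78 (limma adjusted p = 0.0082). Rhbdf1 was not called in any comparison. Of all probes, 24.4% were called higher and 28.2% lower with DSS in Flox, and 22.0% and 22.5% in GR iKO. Between the genotypes on DSS 6.44% were called higher in GR iKO.

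Of 10 further genes listed with the family, whether or not each uses gp130, 8 were tested. In Flox, 3 were called higher with DSS (Cntfr 1.90, Il31ra 1.83 and Cntf 0.45) and 2 lower (Ctf1 −0.70 and Ctf2 −0.77), against 24.4% and 28.2% of all probes. In GR iKO, 3 were called higher (Ebi3 1.33, Il31ra 1.18 and Cntfr 0.95) and 1 lower, Ctf1 at −1.55, against 22.0% and 22.5%. In either direction 52.6% of all probes were called in Flox and 44.5% in GR iKO, so the calls of this list lie near that share. Under spike-in scaling none of the 3 in Flox and 2 of the 3 in GR iKO stayed above 0. Ctf1, which encodes cardiotrophin-1, was the 1 gene of these called between the genotypes on DSS (−0.79, limma adjusted p = 0.0132), a sign that turned under spike-in scaling. Of all probes, 13.2% were called in that comparison. Il27 and Il27ra were not called in any comparison, and Il31 was too dim to be tested.

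**Figure D5:**
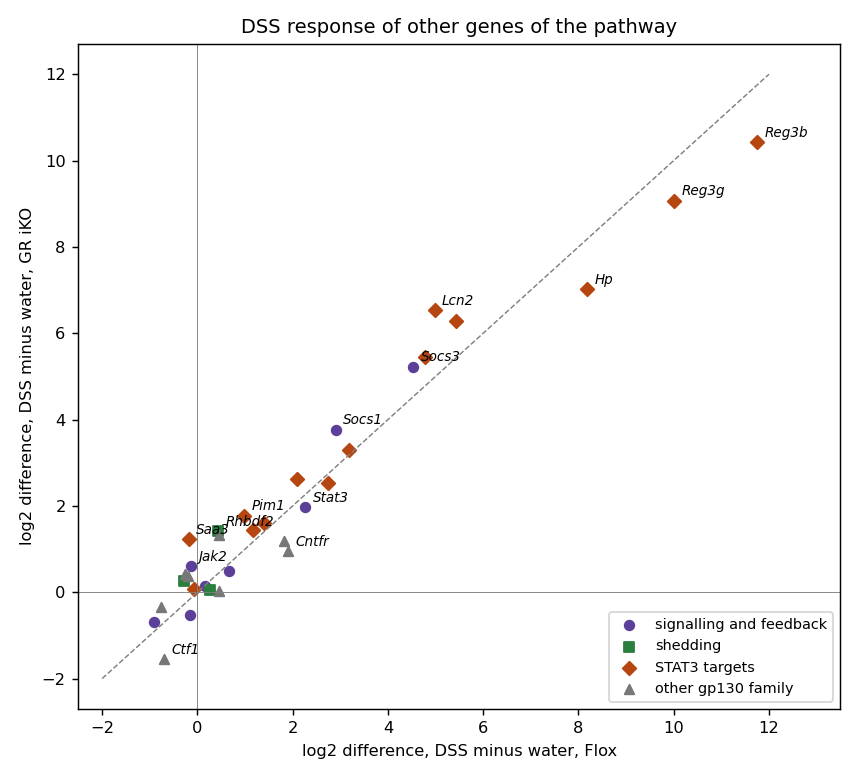
Log2 difference between DSS and water in Flox (x axis) and in GR iKO (y axis) for the tested genes of 4 lists. The lists are signalling and feedback, receptor shedding, STAT3 targets and further genes listed with the family, with a dashed line of equal response. Reg3b, Reg3g and Hp lie farthest out, at 11.76, 10.01 and 8.18 in Flox, and Saa3 lies at −0.18 in Flox and 1.23 in GR iKO. Spike-in scaling would move every point by −2.36 in Flox and −0.96 in GR iKO.

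The genes outside the family whose log2 signal followed that of Il6 most closely over the 14 arrays were Socs3 (Pearson r = 0.998), Ier3 (0.996), Pfkfb3 (0.993), Cebpb (0.991) and Serpina3m (0.991). Over the 6 DSS arrays alone r was 0.918 for Socs3, 0.961 for Ier3, 0.65 for Pfkfb3, 0.633 for Cebpb and 0.728 for Serpina3m. For Il11 they were Fgr (0.99), Mmp14 (0.986), Chst11 (0.984), Lilra6 (0.984) and Cemip (0.982), with 0.958, 0.973, 0.875, 0.925 and 0.961 over the DSS arrays. The 14 arrays fall into separate water and DSS clusters, and the values are a description without a test.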

How the data were processed

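Whole-colon RNA (500 ng, Cy3) of 14 mice was measured on 1-colour Agilent arrays, 1 mouse each. The deposited scanner files, which the authors made with Agilent Feature Extraction 12.0.0.7, hold background-subtracted, detrended linear intensity values for 45018 spots. Signals near background are raised to a positive surrogate there, which shrinks fold changes of dim probes. The authors' deposited log2 value table, whose normalization is not given in the sources used here, served as an alternative. The submitters' processing notes also name Partek 6.6.

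Control spots (1639) and outlier spots were left out, spots of a probe were averaged, and the 75th percentile of each array was subtracted on the log2 scale. Probes well above background on at least 3 of 14 arrays were tested (29523 of 41174). Symbols came from RefSeq accessions (28223 of 29245 matched, GRCm38.p6). The array grid uses another build, so no probe positions are given. All 14 arrays entered 1 limma 3.58.1 fit (lmFit, eBayes, R 4.3.3) with 5 two-sided comparisons, each adjusted by Benjamini-Hochberg over all tested probes. The fit was tested on simulated data. Fold bounds set a group not above background on any array at the dimmest detected signal or its own, whichever was higher. Groups and replicate numbers came from the labels, and slides and array positions from the file headers. Each group kept 1 position on every slide: Flox water 1, GR iKO water 2, Flox DSS 3 and GR iKO DSS 4. Group and position therefore cannot be told apart, and a slide block does not change this. The number of arrays limits the precision, and mice share nothing stated beyond a number and a slide.

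The members, lists and named genes (all members, pathway genes that were called or most extreme, and the 5 genes most like Il6 and Il11) were chosen with earlier results of these data known. Other scalings, filters, blocks, weights and left-out arrays were tried. Some genes of the pathway lists are not reported here.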

Additional observations from a re-analysis of the deposited data

Results flagged for a closer look

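The Il11 response to DSS was larger in GR iKO than in Flox. The interaction was 2.43 on the log2 scale (SE 0.29), from a DSS response of 3.20 in Flox and 5.64 in GR iKO. The family was selected on earlier results in which this gene differed between groups, so the value is a description and no independent evidence. None of the 18 water groups of 4 mice that were examined for an outlying array (9 genes in 2 genotypes) had one.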

How the results depend on the processing

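Of the 1151 member values recomputed under another setting, 1079 kept their direction or stayed uncalled, and their side of the threshold, 40 lost the call, 20 gained one and 12 turned direction. In 50 of the 1079 an uncalled value changed sign. No value turned direction outside spike-in scaling and other probes of the gene. Under spike-in scaling Flox with DSS gave −1.75 for Clcf1, −1.06 for Il11ra1, −1.91 for Il6ra, −2.36 for Lifr and −0.76 for Osm, GR iKO with DSS gave −0.021 for Clcf1 and −0.35 for Il11ra1, and Il11ra1 between the genotypes on DSS gave 0.40. With other probes, Osm in Flox gave −0.10 and Lifr in GR iKO gave 0.62, 3.68 and 0.73.

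The number of the 9 genes called was 6 to 8 with DSS in Flox, 6 to 8 in GR iKO (8 where any probe of a gene counted) and 0 on water under the settings tried. The 6 under spike-in scaling were 2 higher and 4 lower in Flox and 5 higher and 1 lower in GR iKO, and no member was called lower in either under the other scalings, filters, blocks and weights. Between the genotypes on DSS it was 4, but 1 when water and DSS arrays were weighted separately, 0 with only the groups compared, and 2 (without Flox DSS replicate 2) to 5 when 1 array was left out. For the interaction it was 1, but 5 under spike-in scaling (beside 63.5% of all probes called), 4 with array quality weights (6.99%), 0 without a filter on dim probes, 0 with slide as a block, 0 with separate weights and 0 to 4 when 1 array was left out. With the replicate number as a block the interaction count was 0 (Il11 2.31). Of 45 values this was the 1 call that changed, and it was that of Il11. These counts include Il6 and Il11, on whose values the family was selected, and their calls are no evidence of their own. Without these 2 genes the main fit called 1 higher and 1 lower between the genotypes on DSS and 0 for the interaction. Same-numbered mice deviated together with correlations of −0.08 to 0.31, so the numbers were not taken as pairs.

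Over all probes, the calls between the genotypes on DSS were 3903, but 9 with separate weights, 0 with only the groups compared (4794 at an unadjusted p under 0.05) and 21838 under spike-in scaling. The normexp correction was planned on mean signals, which the files used here do not hold, so that version was not run. It was run on median signals, chosen after seeing the data, and changed no count of members by over 1.5 times. Signal near background limits Il6 (not above it on 8 of 14 arrays), Osm (3), the second Osm and Osmr probes (11 and 7) and 3 Lifr probes (3, 5 and 13).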
